A study of Mus musculus with 34 samples.

Results

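Ell2, its paralog Ell, Fam46c and genes of mRNA end formation were examined in mouse splenic B cells after activation: Ell, Ell2, Cstf1, Cstf2, Cstf2t, Cstf3, Pcf11 and Fam46c. They were taken by gene symbol as genes tied to the processing of secreted immunoglobulin mRNA and to poly(A) addition, and they make up 8 of 23812 gene rows of the RNA table. The members were chosen by symbol with knowledge of their FPKM values in the activated and resting samples, so for these 8 genes the difference between activated and resting cells is given as a description. No p-value is given for any of them, and counts of members past a threshold stand only beside the share or number of all genes past it and support nothing. The other pathway genes and the cell type markers were likewise chosen with earlier results of these data known. Their limma p-values and counts of calls are therefore a description as well.

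The series holds 34 samples, among them RNA-seq of 2 activated and 2 resting samples. The cells were splenic B cells without surface CD43, from C57BL/6J mice (written C56BL/6J by the submitters) 6 to 8 weeks old. Activated cells had been kept for 3 days with the bacterial product lipopolysaccharide (LPS) at 10 µg per ml, and resting B cells (rB) were the controls. That dose is from the treatment text of the labels, while their growth text gives 10 µg per µl. For the resting samples the culture text also describes LPS, and their handling is therefore not settled by the labels. The labels name no animal or culture for a replicate, and the p-values then cover only the spread among these samples, which may be technical. FAIRE-seq (open chromatin), STARR-seq (fragments that drive their own transcription in a reporter plasmid), ChIP-seq of the histone marks H3K27ac and H3K4me3, and Hi-C (contacts between distant DNA regions) were used from activated cells. No peak or contact list of resting cells was used here, so nothing about a change of chromatin can be read from them.

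When a B cell becomes an antibody-secreting cell, the immunoglobulin heavy chain transcript is cut and polyadenylated at an early poly(A) site, which gives the secreted form in place of the membrane form. ELL2, an elongation factor of RNA polymerase II, is known to promote the use of that site in plasma cells. The cleavage stimulation factor CstF, made of products of Cstf1, Cstf2 and Cstf3, binds downstream of the cleavage position, and PCF11 links cleavage to termination. FAM46C, also called TENT5C, is a cytoplasmic poly(A) polymerase that lengthens the tails of mRNAs of secreted proteins, immunoglobulins among them.

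The RNA values were treated as FPKM, that is, fragments per kilobase of transcript adjusted for sequencing depth, a scale on which genes of different length can be compared. Between 10126 and 10598 genes per sample had at least 1 FPKM. Of the plasmablast and plasma cell markers 4 of 5 rose, with summed levels of 1792 and 2027 FPKM in activated cells, against 131.3 and 180.8 FPKM in resting cells. Sdc1, the plasma cell surface protein syndecan-1, was the one not called, at 2.16 and 5.17 FPKM in activated cells and 3.46 and 3.76 FPKM in resting cells. B cell markers fell in 4 of 5 cases but stayed high, summing to 1808 and 1328 FPKM in activated cells, against 2922 and 3330 FPKM in resting cells. All 6 macrophage markers fell, with sums of 3.45 and 4.98 FPKM in activated cells, against 346.4 and 388.2 FPKM in resting cells, and C1qa and C1qb at 0 in each activated library. The erythroid markers summed to 14.3 and 5.17 FPKM in activated cells, against 1361 in resting replicate 1 and 9059 FPKM in resting replicate 2, so resting replicate 2 stood apart. The part of these cells in the differences given here was not tested, and in such bulk samples fewer cells of a type and less RNA per cell cannot be told apart.

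Promoter sequences are given for the genes with the widest RNA differences, Ell2 and Fam46c, and for the paralogs Ell and Cstf2t, which had lower values in activated cells. Each shows the 250 bases before the gene start, from RefSeq on GRCm38.p6, read in the direction of transcription. Capitals mark matches, on either strand, to the CCAAT box, to CCACG (the core of the endoplasmic reticulum stress element) and to TGACGTCA (the cAMP response element). The windows lie at chr13:75707234-75707483 (+) for Ell2, chr8:70539425-70539674 (+) for Ell, chr3:100489193-100489442 (-) for Fam46c, listed there as Tent5c, and chr19:31082591-31082840 (+) for Cstf2t.
Ell2: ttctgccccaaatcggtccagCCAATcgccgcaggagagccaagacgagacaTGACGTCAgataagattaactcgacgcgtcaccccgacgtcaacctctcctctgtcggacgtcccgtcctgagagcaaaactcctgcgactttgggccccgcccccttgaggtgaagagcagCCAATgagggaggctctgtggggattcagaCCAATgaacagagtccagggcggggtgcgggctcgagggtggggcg
Ell: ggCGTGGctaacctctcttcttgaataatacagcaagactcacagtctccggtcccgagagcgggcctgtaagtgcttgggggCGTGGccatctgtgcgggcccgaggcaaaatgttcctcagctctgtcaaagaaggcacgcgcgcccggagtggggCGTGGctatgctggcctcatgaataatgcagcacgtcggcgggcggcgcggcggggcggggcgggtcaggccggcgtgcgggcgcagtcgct
Fam46c: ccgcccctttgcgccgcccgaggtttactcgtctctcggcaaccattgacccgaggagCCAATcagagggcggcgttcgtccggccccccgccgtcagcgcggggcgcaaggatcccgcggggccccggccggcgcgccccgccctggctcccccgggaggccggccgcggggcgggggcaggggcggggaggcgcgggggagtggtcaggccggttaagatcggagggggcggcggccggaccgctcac
Cstf2t: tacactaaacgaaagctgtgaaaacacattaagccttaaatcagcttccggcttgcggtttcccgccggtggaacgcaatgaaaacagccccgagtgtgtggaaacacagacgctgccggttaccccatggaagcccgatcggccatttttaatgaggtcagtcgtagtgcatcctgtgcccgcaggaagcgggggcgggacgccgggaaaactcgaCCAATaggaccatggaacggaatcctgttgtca

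The Ell2 window held 1 TGACGTCA, which begins 198 bases before the start. This sequence was found in 1.55% of 32851 mouse promoter windows of the same length, and in no other of the 8. CCAAT occurred 3 times in Ell2, 3 times in Pcf11, 2 times in Cstf3 and once each in Fam46c and Cstf2t, and 33.8% of all windows hold it. Ell had no CCAAT but 3 copies of CCACG, all on the other strand (CGTGG as printed), while none of the other 7 windows had this core, which 28.3% of all windows hold. The E-box CACGTG was seen in Cstf1 only (6.02% of windows). The loose NF-kB pattern (GGG and CC with any 5 bases between them), whose matches can overlap each other and other motifs, was in 6 of 8 windows and in 45.8% of all. Matches to the octamer ATGCAAAT (1.60% of windows), the interferon response element (2.98%), the AP-1 pattern TGANTCA (6.75%) and TATAAA (12.4%) were not found in the 8 windows. G and C made up 78.8% of the Fam46c window and 61.2% of that of Ell2. The remaining members ranged from 54.4% (Cstf2t) to 66.0% (Ell), and the median over all windows was 52.4%. The Fam46c gene is 21136 bases long in RefSeq and 17657 bases in the RNA table, so its start may differ between them, and Cstf1 is 11805 bases long in RefSeq and 10084 in the RNA table. All 8 genes were matched to a RefSeq promoter.

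Ell2 and Fam46c had the widest differences of the 8 genes between activated and resting cells. Over all 10863 genes with at least 1 FPKM in at least 2 samples, limma called 28.2% higher and 26.2% lower at adjusted p under 0.05, 54.4% in either direction. In that fit 2 of the 8 passed the threshold as higher and 0 as lower, and 3 and 2 at an unadjusted p under 0.05, against 31.5% higher and 29.1% lower over all genes. Nothing is read from these member counts, because the choice of the 8 used this contrast. In 4 of the 8 both activated samples lay above both resting samples, in 3 both lay below, and in 1 the groups overlapped. Over all genes tested 41.5% lay above in this way and 39.1% below, or 80.6% without overlap.

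**Figure D1:**
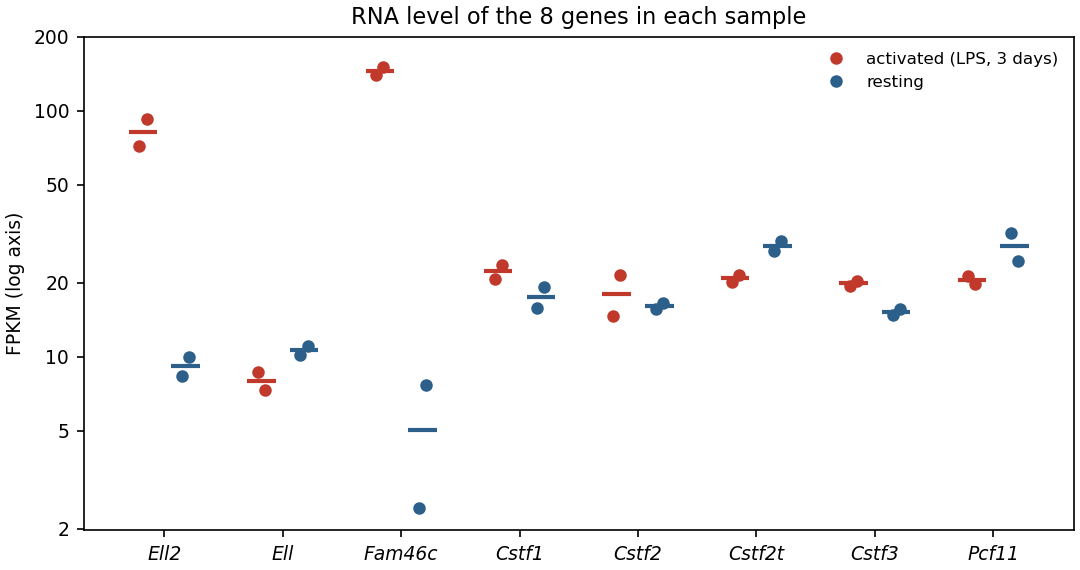
RNA level (FPKM, log axis) of the 8 genes in 2 activated and 2 resting samples; points are samples and short bars are group means. Ell2 and Fam46c stand far above their resting values in both activated samples, while the other 6 genes lie between 7.34 and 32.0 FPKM in all 4 samples.

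Ell2, on chromosome 13 (chr13:75844932-75909806, plus strand, build mm9), had 71.8 and 92.5 FPKM in activated cells, against 8.37 and 10.0 FPKM in resting cells. Both activated samples lay far above both resting ones. The means were 82.1 ± 14.6 FPKM in activated and 9.18 ± 1.16 FPKM in resting cells (SD, n = 2 each), a log2 difference of 3.02 ± 0.19 (SE) on the scale of FPKM + 1. Of all genes tested, 119, or 1.10%, had a larger log2 difference. With 1 sample left out at a time the difference ranged between 2.84 and 3.20.

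Its paralog Ell, the founding member of the family, lies on chromosome 8 (chr8:73063574-73116757, plus strand). It had 8.64 and 7.34 FPKM in activated cells, against 10.2 and 11.0 FPKM in resting cells. Both activated values were below both resting ones, with a log2 difference of -0.37 ± 0.15, and Ell was the lowest of the 8 genes in activated cells. The level of Ell2 was 8.32 and 12.6 times that of Ell in the activated samples, against 0.823 and 0.906 times in the resting samples. This log2 ratio was therefore 3.39 higher in activated cells. The third paralog Ell3 fell most among the genes of elongation examined, with 0.420 and 0.556 FPKM in activated cells, against 26.5 and 30.0 FPKM in resting cells. Its log2 difference was -4.30 ± 0.16 (limma adjusted p = 2.53e-05).

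The family sum was 80.9 and 100.3 FPKM in activated cells, against 45.0 and 51.1 FPKM in resting cells. Ell2 made up 88.8% and 92.1% of that sum in activated cells, against 18.6% and 19.6% in resting cells. Ell3 supplied 0.519% and 0.554% of it in activated cells, against 58.9% and 58.8% in resting cells. Ell contributed 10.7% and 7.31% in activated cells, and 22.6% and 21.6% in resting cells. The main family transcript was thus Ell2 in both activated samples and Ell3 in both resting samples.

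Among the 15 measured genes of the super elongation complex and other partners of ELL proteins, 3 rose and 5 fell. The list's median log2 difference was 0.06, against 0.03 over all genes tested. Eaf2, whose product binds ELL proteins and stimulates them, had 27.2 and 36.2 FPKM in activated cells, against 1.40 and 2.32 FPKM in resting cells (log2 difference 3.52 ± 0.22, limma adjusted p = 8.24e-05). Its relative Eaf1 rose by 0.48 ± 0.16 and Larp7, which holds the inhibitory 7SK particle together, by 0.60 ± 0.16. Ccnt2, a cyclin of the elongation kinase P-TEFb, fell by 0.83 on the log2 scale and the scaffold gene Aff4 by 0.76. Narg2, whose product ICE2 belongs to the little elongation complex, and Mepce, the capping enzyme of 7SK RNA, fell as well. Eaf1 lost its call without the filter and under all 3 other scalings, and Mepce without the filter. With 1 sample left out, the calls of Eaf1, Larp7, Narg2, Mepce and Aff4 were lost, with limma adjusted p of up to 0.23 for Eaf1 and 0.116 for Larp7 without resting replicate 2, and 0.114 for Narg2, 0.196 for Mepce and 0.06 for Aff4 without resting replicate 1. The kinase gene Cdk9 was not called, with 17.7 and 17.9 FPKM in activated cells and 22.3 and 22.9 FPKM in resting cells.

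Pausing and elongation factors had 4 of 11 genes higher and none lower, with a median of 0.12. Nelfe and Nelfa, subunits of the negative elongation factor, rose by 1.49 ± 0.16 and 0.82 ± 0.21. Leo1 and Cdc73, of the PAF1 complex, rose by 1.14 ± 0.17 and 0.72 ± 0.15. Without resting replicate 1 the calls of Nelfa and Cdc73 were lost (limma adjusted p = 0.084 and 0.0623), and that of Nelfa also without resting replicate 2 (0.0606) and without the filter (0.0511). Supt5, a subunit of the elongation factor DSIF, had 37.8 and 40.5 FPKM in activated cells and 37.3 and 34.8 FPKM in resting cells and was not called.

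Fam46c (chr3:100275459-100293115, minus strand) had 140.2 and 151.0 FPKM in activated cells, against 2.42 and 7.68 FPKM in resting cells. The activated samples differed by 1.08 times from each other, while resting replicate 2 was 3.17 times resting replicate 1. The means were 145.6 ± 7.68 FPKM in activated and 5.05 ± 3.71 FPKM in resting cells (SD, n = 2 each), a log2 difference of 4.75 ± 0.42. Only 9 of the genes tested had a larger one. It was 5.42 without resting replicate 2, the library with the higher erythroid sum, and 4.08 without resting replicate 1. The plasma cell marker Igj, the joining chain of secreted antibody, had 1173 and 1255 FPKM in activated cells, against 35.8 FPKM in resting replicate 1 and 76.6 FPKM in resting replicate 2. Whether erythroid or plasma cells supplied the resting Fam46c values was not tested.

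Fam46c was the highest of the 8 genes in activated cells and the lowest in resting cells. Its relative Fam46a ran the other way, at 1.63 and 1.17 FPKM in activated cells, against 12.8 and 14.2 FPKM in resting cells (log2 difference -2.60 ± 0.17, limma adjusted p = 9.34e-05). Fam46c made up 98.8% and 99.2% of the summed Fam46a, Fam46b, Fam46c and Fam46d level in activated cells, against 15.9% and 35.1% in resting cells. Fam46b and Fam46d were at or near 0 in all 4 samples and were not tested. The family sum was 141.9 and 152.2 FPKM in activated cells and 15.2 and 21.9 FPKM in resting cells.

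Of the 8 non-canonical poly(A) and uridyl transferases tested beside Fam46c, 1 rose and 3 fell, with a median of -0.10. Papd4, the cytoplasmic poly(A) polymerase GLD2, rose by 0.74 ± 0.14, a call lost without resting replicate 1 (limma adjusted p = 0.0597). Zcchc6 and Zcchc11, which add uridines to RNA ends, fell by 1.04 and 1.00. Zcchc6 had 10.9 and 10.2 FPKM in activated cells, against 24.3 and 21.2 FPKM in resting cells.

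The canonical poly(A) polymerases and poly(A) binding proteins had 2 genes higher and 1 lower of 5. Pabpc1, the main cytoplasmic poly(A) binding protein, had 356.8 and 372.4 FPKM in activated cells, against 140.9 and 136.6 FPKM in resting cells (log2 difference 1.39 ± 0.21, limma adjusted p = 0.00196). Pabpc4 rose by 1.53 ± 0.15. Papolg, a nuclear poly(A) polymerase, had 6.15 and 5.34 FPKM in activated cells, against 13.0 and 13.9 FPKM in resting cells, a fall of 1.10. The main nuclear polymerase Papola was not called, with 49.1 and 66.2 FPKM in activated cells and 36.5 and 45.2 FPKM in resting cells. Pabpn1, the nuclear poly(A) binding protein, was not called either, with 97.0 and 104.8 FPKM in activated cells and 83.9 and 78.0 FPKM in resting cells.

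The subunits of CstF differed little between the groups. Cstf1 (CstF-50, chr2:172196503-172206586, plus strand) had 20.8 and 23.7 FPKM in activated cells, against 15.8 and 19.3 FPKM in resting cells. Cstf3 (CstF-77, the scaffold of the complex, chr2:104430641-104505582, plus strand) had 19.4 and 20.3 FPKM in activated cells, against 14.8 and 15.7 FPKM in resting cells. For both genes the groups did not overlap, and the log2 differences were 0.33 ± 0.17 for Cstf1 and 0.36 ± 0.14 for Cstf3. Cstf2 (CstF-64, the RNA-binding subunit, chrX:130593888-130621360, plus strand) had 14.6 and 21.5 FPKM in activated cells, against 15.6 and 16.5 FPKM in resting cells. Here the activated samples lay on both sides of the resting ones. The difference was 0.14 ± 0.20, and without activated replicate 2 it was -0.13.

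Cstf2t encodes tau-CstF-64, an intronless paralog of Cstf2, and lies within the locus of Prkg1 (chr19:31157331-31161082, plus strand). It had 20.2 and 21.5 FPKM in activated cells, against 26.97 and 29.5 FPKM in resting cells, a difference of -0.42 ± 0.15. Both activated samples lay below both resting ones. Prkg1 itself did not exceed 0.0170 FPKM in any sample. Cstf2t formed 58.0% and 50.02% of the summed Cstf2 and Cstf2t level in activated cells, against 63.3% and 64.1% in resting cells. Because the table gives no account of reads shared between these paralogs, their split is uncertain. The level of Cstf2 relative to Cstf3 was 0.753 and 1.06 in activated cells, against 1.05 in both resting samples.

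Pcf11 (chr7:99792222-99818422, minus strand), the subunit of cleavage factor II that binds the polymerase tail, had 21.3 and 19.8 FPKM in activated cells, against 32.0 and 24.4 FPKM in resting cells. Both activated samples were below both resting ones, with a log2 difference of -0.43 ± 0.18. The other genes of cleavage factors I and II split, with 1 of 4 higher and 1 lower. Nudt21, the subunit of cleavage factor I that recognises UGUA, had 18.2 and 22.4 FPKM in activated cells, against 6.72 and 9.69 FPKM in resting cells (log2 difference 1.22 ± 0.20, limma adjusted p = 0.00296). Cpsf7, its partner subunit, had 30.7 and 30.1 FPKM in activated cells, against 51.7 and 49.6 FPKM in resting cells, and fell by 0.72. Its call was lost without resting replicate 1 (limma adjusted p = 0.083) and without resting replicate 2 (0.0616). The alternative partner Cpsf6 was not called, at 28.7 and 29.8 FPKM in activated cells and 31.3 and 36.5 FPKM in resting cells. Clp1, which sits with Pcf11 in cleavage factor II, was not called, with a log2 difference of 0.08.

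In the group of the cleavage and polyadenylation specificity factor 2 of 8 genes rose and none fell. These were Cpsf4 (log2 difference 0.69 ± 0.17) and the scaffold gene Sympk (0.56 ± 0.18). Cpsf4 lost its call without resting replicate 1 (limma adjusted p = 0.113). Sympk lost its call without the filter (0.0682), with each sample scaled to the same sum (0.0598), and without activated replicate 2 (0.105), resting replicate 1 (0.137) or resting replicate 2 (0.157). Among termination genes Rprd1a, which binds the polymerase tail, rose by 0.50 ± 0.15. That call was lost with each sample scaled to the same sum (limma adjusted p = 0.104), with median-of-ratios scaling (0.0518), and without activated replicate 1 (0.0595), resting replicate 1 (0.159) or resting replicate 2 (0.195). The nuclease gene Xrn2 was not called, with 33.2 and 31.8 FPKM in activated cells and 29.5 and 27.3 FPKM in resting cells. Ssu72, a phosphatase of the polymerase tail, and Rprd1b were not called either, with log2 differences of 0.40 and 0.47.

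RNA-binding proteins studied in the choice between secreted and membrane immunoglobulin mRNA had 3 of 8 genes higher and none lower. Snrpa, a protein of the U1 splicing particle, had 37.1 and 39.3 FPKM in activated cells, against 14.6 and 13.4 FPKM in resting cells (log2 difference 1.39 ± 0.15, limma adjusted p = 0.000557). Snrpc, of the same particle, rose by 1.01 ± 0.17 and Hnrpll, a splicing regulator of lymphocytes, by 0.67 ± 0.20 at levels of 1.87 and 2.68 FPKM in activated cells and 0.814 and 1.29 FPKM in resting cells. The call of Hnrpll was lost without the filter (limma adjusted p = 0.0625) and without activated replicate 2 (0.119), resting replicate 1 (0.211) or resting replicate 2 (0.0542). Hnrnpf was not called, at 48.1 and 55.8 FPKM in activated cells and 41.2 and 41.8 FPKM in resting cells.

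Over the 8 pathway lists together, 17 of 64 tested genes rose and 11 fell, or 26.6% and 17.2%, against 28.2% and 26.2% of all genes tested. The median log2 difference of these genes was 0.18, against 0.03 for all. Because the lists were chosen with earlier results of these data known, these values are a description. Without resting replicate 1 the counts were 8 and 5, and without resting replicate 2 they were 11 and 6.

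**Figure D2:**
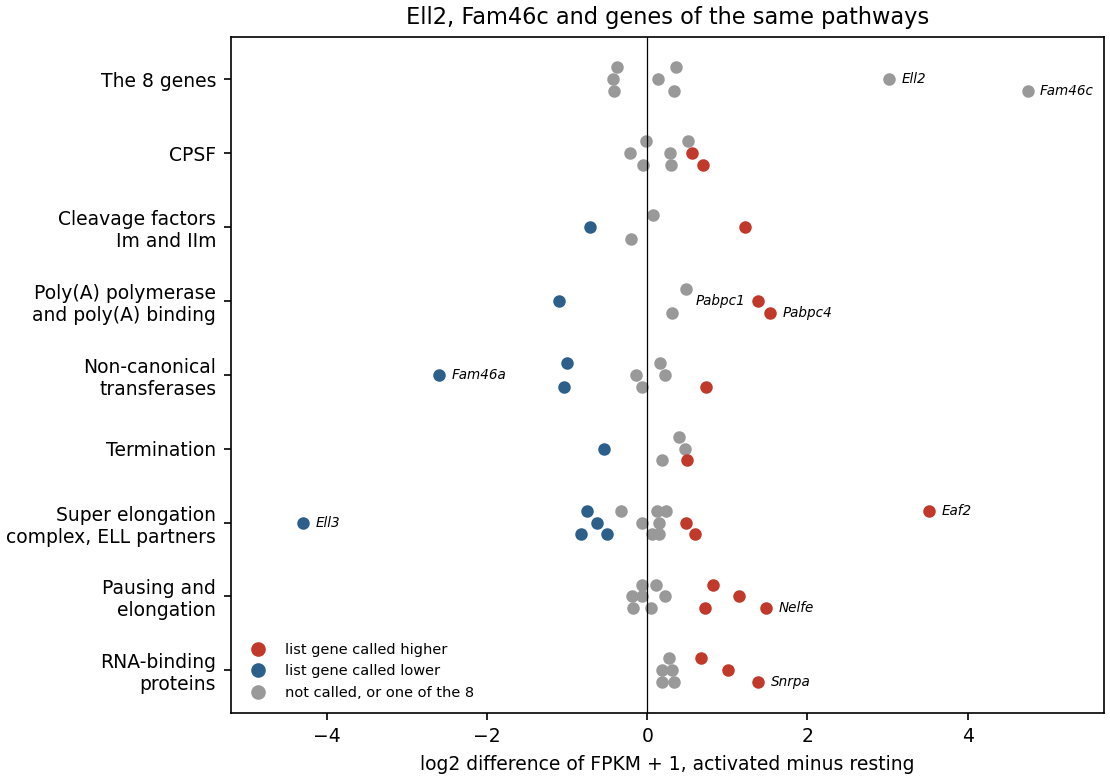
Log2 difference (activated minus resting, FPKM + 1) of the 8 genes, in the top row and without a test, and of the tested genes in 8 pathway lists. Red and blue points passed limma at adjusted p under 0.05, and grey ones did not or belong to the 8; Fam46c (4.75), Eaf2 (3.52), Ell2 (3.02), Fam46a (-2.60) and Ell3 (-4.30) lie farthest from 0.

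The genes nearest to Ell2 in level and pattern, by Euclidean distance over the 4 log2 values, were Mthfd2, Lman1, Insig1, Prdx4 and Cyp51, at distances of 0.17 to 0.34. Mthfd2, of mitochondrial folate metabolism, had 74.3 and 93.3 FPKM in activated cells, against 7.81 and 8.99 FPKM in resting cells. Lman1 encodes a cargo receptor between the endoplasmic reticulum and the Golgi apparatus, and Prdx4 a peroxidase of the endoplasmic reticulum. For Fam46c the nearest gene was Derl3, of endoplasmic reticulum associated degradation, at 0.92, with 102.1 and 112.7 FPKM in activated cells, against 3.23 and 4.69 FPKM in resting cells. Top2a, Slc7a5, Ube2c and Ccna2 followed, at distances of up to 1.29. With 4 samples in 2 groups this likeness rests mainly on the group means.

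Peaks of activated cells were then read at each gene, within 5000 bases of the locus. FAIRE peaks were present at all 8 genes, H3K27ac and H3K4me3 peaks at 7, STARR peaks at 6 and STARR peaks lying in FAIRE peaks at 5. The shares over 10162 genes with at least 1 FPKM in activated cells were 96.8% for FAIRE, 94.1% for H3K27ac, 94.8% for H3K4me3, 69.0% for STARR and 64.4% for STARR in FAIRE. The members were near these shares. None of the 8 had a super-enhancer (a long domain of H3K27ac), and 0.590% of those genes had one. Within 1000 bases of the gene start, FAIRE, H3K27ac and H3K4me3 peaks were found at 7 of the 8, and STARR and STARR in FAIRE peaks at 5. The shares over 8187 expressed genes with a known strand were 90.5% for FAIRE, 88.8% for H3K27ac, 91.3% for H3K4me3, 52.9% for STARR, 51.0% for STARR in FAIRE and 0.379% for super-enhancers. Replicates were not compared, since there is 1 list per assay. STARR-seq was run at an earlier and a later hour, and the labels name the same peak list for both. These times can therefore not be told apart.

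At Ell2 the start lay under a FAIRE peak and a STARR peak that overlap each other, under an H3K4me3 peak of 4177 bases and an H3K27ac peak of 3493 bases. A second, wider H3K27ac peak of 9997 bases lay inside the gene (chr13:75869394-75879390), centred 29.5 kb downstream of the start. Only 68 of 23938 H3K27ac peaks, or 0.284%, were as wide. It held 4 FAIRE peaks and 1 STARR peak, at 31.7 kb, which did not overlap a FAIRE peak, and no H3K4me3 peak. A further STARR peak at 3.93 kb lay outside FAIRE and both marks. Outside the gene, STARR peaks that overlap FAIRE peaks stood 15.6 kb upstream, in an H3K27ac peak, and 82.1 kb downstream of the start, without either mark. H3K27ac covered 13990 bases of the Ell2 window, and 1.94% of the expressed genes had as much. As a share of the window this was 18.7%, which 13.1% of those genes reached.

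At Fam46c the start lay under an H3K4me3 peak of 6676 bases (chr3:100287779-100294454), a width reached by 0.386% of 16861 such peaks, and an H3K27ac peak of 5027 bases. Beyond it 5 smaller H3K27ac peaks of 500 to 1272 bases followed through the gene, and one of 4384 bases stood 26.0 kb downstream of the start, past the gene's end. H3K27ac covered 31.1% of the Fam46c window, a share that 4.51% of the expressed genes reached, and H3K4me3 covered 24.1%, reached by 6.97%. The locus had 5 FAIRE peaks but a single STARR peak, 5.38 kb into the gene. It lay outside FAIRE and H3K27ac peaks and overlapped the wide H3K4me3 peak. The nearest STARR peak within FAIRE was 44821 bases from the start.

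Ell had a STARR peak 0.37 kb upstream of the start, overlapping FAIRE, H3K27ac and H3K4me3, and a second such site 54.7 kb downstream, just past its end. A Hi-C anchor over that second site also holds the start of Isyna1, which had a mean of 36.4 FPKM in activated cells. At Cstf2t, Cstf3 and Pcf11 a STARR peak within FAIRE, H3K27ac and H3K4me3 lay within 0.11 kb of the start. Cstf2 had FAIRE, H3K27ac (955 bases) and H3K4me3 (2013 bases) peaks at its start but no STARR peak, the nearest being 181272 bases away. Cstf1 had no STARR, H3K27ac or H3K4me3 peak within 5000 bases of its locus. Its start was 7453 bases from the nearest FAIRE peak and 22517 bases from the nearest H3K4me3 peak. Of 2308 genes with a known strand and at least the level of Cstf1 in activated cells, 5.29% had no peak of these 4 kinds within 1000 bases of the start. The start of Aurka, a mitotic kinase gene on the other strand, is 497 bases from that of Cstf1. Aurka had 28.4 and 42.6 FPKM in activated cells, against 2.76 and 2.66 FPKM in resting cells.

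**Figure D3:**
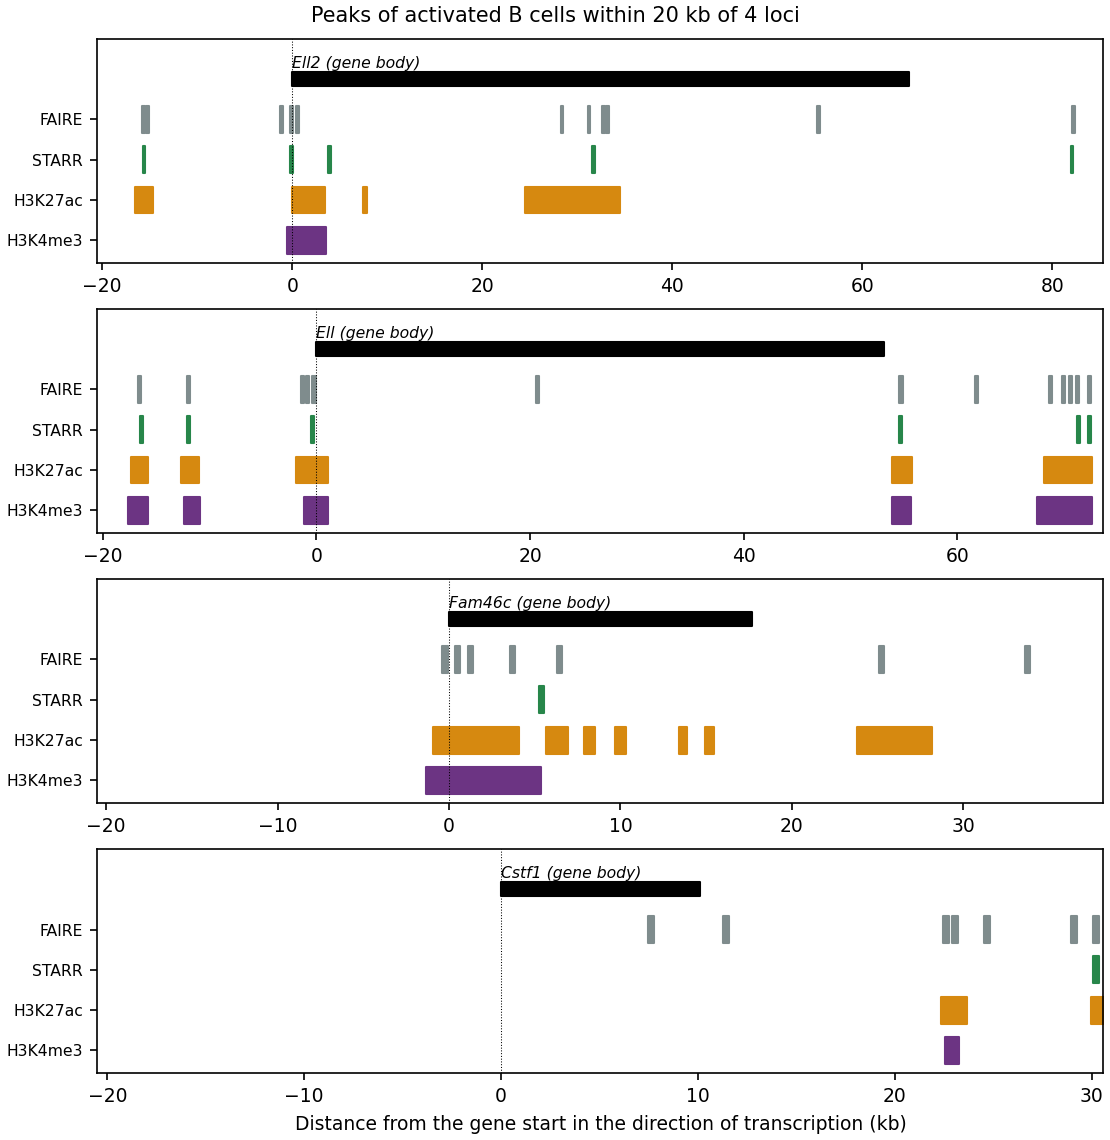
Positions of FAIRE, STARR, H3K27ac and H3K4me3 peaks of activated cells from 20 kb before to 20 kb past Ell2, Ell, Fam46c and Cstf1, in kb from the gene start in the direction of transcription (0, dotted line); black bars are the genes and peaks under 0.25 kb would be drawn at that width. The 9997-base H3K27ac peak inside Ell2, the run of H3K27ac peaks through Fam46c and the empty start of Cstf1 can be seen.

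The Hi-C list, which holds 27903 distinct contacts with a score (z) of at least 3 and at least 5 reads, gave 52 contacts at 7 of the 8 genes. The median number was 4 for the 8 and 5 for the expressed genes, of which 86.3% had a contact. Nearly all contacts of the list, 99.96%, have a STARR peak in an anchor, so such a peak at the far end is in part set by how the list was made. Reads were pooled over replicates, so contacts are described without a test.

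Ell2 had 3 contacts, each from an anchor that holds its start, and all reached upstream over 1066.4, 1243.2 and 1498.8 kb. They had 7, 5 and 5 reads, near the floor of 5. Each far anchor held STARR, FAIRE, H3K27ac and H3K4me3 peaks. Most anchors of the list do: of those of contacts between separate places, 72.9% held a STARR peak and 89.8% a FAIRE peak. H3K27ac peaks were in 84.9% of them and H3K4me3 peaks in 79.9%. The starts of Erap1, a peptidase of antigen processing with a mean of 25.6 FPKM in activated cells, and Exoc3, an exocyst gene with 9.32 FPKM, lay in the far anchors at 1066.4 and 1498.8 kb. The wide H3K27ac peak inside the gene had no listed contact.

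Fam46c also had 3 contacts, all from its start. The nearest, over 329.4 kb, had 31 reads and ended at the starts of Wdr3 and Gdap2, which had means of 17.6 and 11.9 FPKM in activated cells. The others ended at Trim45 over 433.0 kb with 9 reads and at Phgdh, the first enzyme of serine synthesis, over 2.15 Mb with 5 reads. All 3 far anchors held a STARR peak and the Fam46c anchors did not, a split that the make-up of the list sets.

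Ell had the most contacts of the 8, 18 or 16 after joining those whose anchors overlap, and 6.16% of the expressed genes had as many as 18. Of its 17 contacts between separate places, 6 left from an anchor with the Ell start, against 10 of 13 for Cstf1 and 7 of 9 for Pcf11. Most of the others left from anchors at the far end of Ell, where the start of Isyna1 lies in an overlapping anchor. The Ell contact with the most reads between separate places, 217 over 10.6 kb (z 4.18), joined the Ell start to that of Fkbp8. Cstf1 had 13 contacts, or 12 after the same joining, with no peak at its start, and 14.2% of the expressed genes had as many as 13. Its anchors were 1000 or 5000 bases wide, and the Aurka start lies 497 bases from that of Cstf1. These contacts can therefore not be given to Cstf1 alone. The one with the most reads, 127 over 69.5 kb, ended at Rtfdc1 at an anchor with STARR, FAIRE, H3K27ac and H3K4me3 peaks. Its z was 3.98, against 13.8 for the Cstf1 contact over 11.3 Mb, which had 5 reads. Order by reads and order by z thus differed. The other Cstf1 contacts had 5 to 10 reads. Pcf11 had 9, of up to 30 reads. Cstf3 had 5, and the one with the most reads, 56, reached Hipk3 with the lowest z of the 5, 3.35. Cstf2t had 1, with 7 reads over 1.40 Mb to Minpp1. Cstf2 had none.

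**Figure D4:**
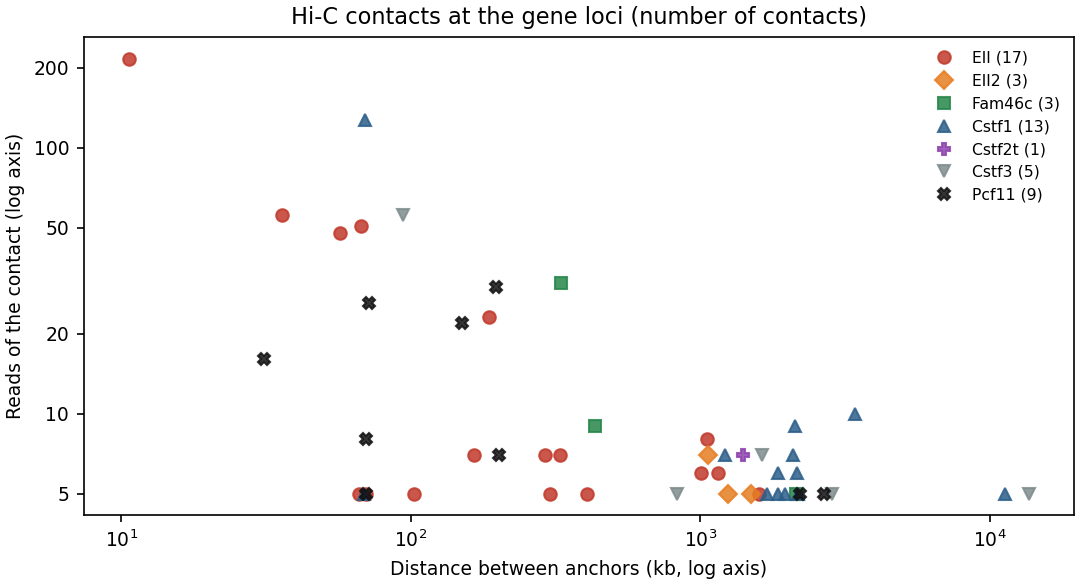
Hi-C contacts of activated cells at 7 of the 8 genes, as distance between anchors (kb, log axis) against reads (log axis); 1 point is 1 contact of the list, and a contact of Ell whose anchors overlap is left out. Ell and Cstf1 hold the contacts of 217 and 127 reads, and those of Ell2 lie beyond 1000 kb with 5 to 7 reads.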

How the data were processed

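RNA-seq of 2 activated and 2 resting samples, peak lists and a contact list of activated cells were used. Tools named in the submitters' processing notes were STAR, TopHat2, Bowtie, Bowtie2, HOMER and bedtools, with no role or version, and the build was mm9. The unit of the deposited RNA table is not named. Its values were treated as FPKM made by the authors, because most carry decimals and the sample sums range over 244602 to 287884, and the depth is unknown. The strand of reads is not given in the sources used here, so reads of overlapping genes cannot be told apart. Gene strand was taken from RefSeq (GRCm38.p6). Gene starts were set from that strand at the ends of the loci in the RNA table. Start positions in the RNA table count from 0 and were printed from 1.

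The deposited peak lists hold a chromosome, a start and an end and no value. In the deposited Hi-C list the authors' read count per contact, z-score and log p-value score, as per the file headers, were kept as given. Contacts listed more than once were counted once.

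The test was limma 3.58.1 in R 4.3.3 with its trend and robust options, on log2(FPKM + 1) and with no block, for genes reaching 1 FPKM in 2 or more samples, and Benjamini-Hochberg adjusted p under 0.05 over 10863 genes was called. Log2 differences understate changes of low genes. The planned count test did not apply to this unit. The limma fit was tested on simulated data. The members, lists and markers were chosen with earlier results of these data known. The named list genes were up to 4 called genes with the largest rise and 3 with the largest fall per list, and any member of a list of 6 or fewer, while Narg2, Mepce, Cdk9, Supt5 and Hnrnpf were named after their values were seen. The result of 1 list gene is not reported here. Symbols were matched through RefSeq (GRCm38.p6): 66 of 67 list genes were found. Ice1, Ighm and Igkc were not matched. Of other markers, 2 of 2 tested T cell genes and 2 of 2 tested NK cell genes fell, 1 of 2 dendritic cell genes rose and 1 fell, and no neutrophil gene passed the filter. The tested T cell genes were Cd4 and Cd8a, while Cd3e, Cd3d and Cd3g did not pass the filter. Those 3 had at most 0.135 FPKM in resting replicate 1, and 1.05 to 1.50 FPKM in resting replicate 2. Peaks and contacts overlapping a locus extended by 5000 bases by 1 base were counted at a gene. Alternatives were other scalings, filters and pseudocounts, a block on replicate number, each sample left out, and other windows.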

Additional observations from a re-analysis of the deposited data

How the results depend on the processing

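The choice of the 8 genes used the RNA contrast, so counts of them past the threshold are a description. As against 0, members past it as lower numbered 2 with each sample scaled to the same sum (Cstf2t and Pcf11), 2 with median-of-ratios scaling (Cstf2t and Ell), 3 with quantile normalization (Cstf2t, Ell and Pcf11) and 0 to 1 with a sample left out. With a sample left out, genes called higher numbered 1735 to 2859 and lower 1191 to 2834, and list genes 8 to 18 and 5 to 10; the lone sample is then assumed to vary like the other group. Of 27 named list genes 12 lost their call under some of the 13 alternatives, and none changed direction; Ell3 could not be tested with a resting sample left out. The labels do not pair the replicate numbers, and deviations of same-numbered samples correlated at 0.12 over genes. With a replicate block 3317 genes were higher and 2964 lower, and 2 members lower. Contacts at the members numbered 96 with loci extended by 20000 bases and 20 with a z-score above the median, 49 under 3 Mb and 46 after joining overlapping contacts, an alternative chosen after seeing the data, as were the window at the gene start and the count of list genes. A stricter peak threshold was not run because the lists hold no score.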
